A study of Mus musculus with 12 samples.

Results

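Messenger RNA of the MHC class I pathway was followed in follicular (FO) B cells of mouse spleen through 10 genes. The list held the heavy chains H2-K1, H2-D1 and H2-T23, their shared light chain B2m, the peptide transporter subunits Tap1 and Tap2, the peptide editors Tapbp and Tapbpl, the trimming enzyme Erap1 and the transactivator Nlrc5. The genes were taken by their names. All 10 were among the 22561 genes of the count table, and all 10 passed the filter on low counts, which left 9431 genes for testing. FO B cells were sorted from the spleens of 10-week-old C57BL/6 mice and formed 4 groups of 3 samples each. The groups were unstimulated cells, cells stimulated for 12 h with IFNα (a type I interferon) at 0.1 μg/mL, cells stimulated with CpG (a DNA oligonucleotide that is sensed by TLR9) at 1 μg/mL, and cells given both, written CpG + IFNα. The study's legends on these 12 samples differ over the dose of CpG in the combination, which one gives as 1 μg/mL and another as 0.1 μg/mL. If it was the lower one, the added IFNα and the lower dose of CpG cannot be told apart wherever CpG + IFNα is compared with CpG, the interaction included. Whether the unstimulated cells were also kept in culture is not stated, so that every comparison with them holds the stimulus and any effect of culture together. RNA was read by BRB-seq, a method that primes on the poly(A) tail and tags every molecule with the barcode of its sample and with a unique molecular identifier (UMI), so that counts stand for 3′ ends of molecules and do not grow with transcript length. Replicates are numbered in the deposited barcode list as WT1 to WT3, but whether a number stands for a mouse is not said, and p-values therefore measure the spread between these samples, which may be technical.

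MHC class I molecules display short peptides from inside the cell to CD8 T cells. Cytosolic proteases cut proteins into peptides, the TAP transporter moves these into the endoplasmic reticulum (ER), ER aminopeptidases trim them, and tapasin with its chaperones helps a heavy chain paired with β2-microglobulin to bind one of high affinity. Interferons are known to raise most genes of this pathway, partly through IRF factors and partly through NLRC5, which acts on class I promoters.

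The depth was between 922450 and 2923865 UMIs per sample, and the groups with CpG were deeper, with medians of 1098670 for unstimulated cells, 1351378 for IFNα, 1645907 for CpG and 1900101 for CpG + IFNα. Levels are given as CPM (counts scaled to a common library size) after TMM normalization by edgeR, that is, as shares of a library and not as amounts per cell. The label of the cells was checked with 10 marker genes of FO B cells, all of which were counted in every group. Their summed level was between 12060 and 13460 CPM in unstimulated cells and between 10460 and 11830 CPM with IFNα, but between 2606 and 2618 CPM with CpG and between 2200 and 2241 CPM with CpG + IFNα. Of 6 marker genes of plasmacytoid dendritic cells, 5 were counted, among them Bst2, which interferons induce in many cells, and their summed level was between 1057 and 1138 CPM in unstimulated cells, 1835 and 2212 CPM with IFNα, 900 and 1030 CPM with CpG, and 1784 and 1977 CPM with CpG + IFNα. Irf8, another of these marker genes (named after its values were seen), went the other way with IFNα. Its means were 746, 526, 703 and 578 CPM in the same order of groups. Siglech, which defines plasmacytoid dendritic cells, was at 0 in every sample, as were Cd3g and Cd8a of T cells. Of 9 T cell genes, 7 were in the table, and their summed level was between 30.94 and 42.79 CPM in unstimulated cells, 41.96 and 51.89 CPM with IFNα, 4.277 and 9.985 CPM with CpG, and 5.455 and 7.195 CPM with CpG + IFNα. Genes of marginal zone B cells (7 of 7 in the table) summed to between 465 and 546.6, 554.6 and 600.4, 529.9 and 575.9, and 279.8 and 291.9 CPM in the same order of groups. Erythroid genes (6 of 6 in the table) summed to between 57.36 and 344.9, 15.26 and 336, 4.992 and 60.78, and 5.653 and 72 CPM. Of 10 myeloid genes, 9 were in the table and summed to between 14.56 and 41.72, 10.09 and 19.08, 5.702 and 7.488, and 6.555 and 8.223 CPM, with Lyz2, S100a8 and Cd14 at 0 in every sample that was stimulated. The 6 plasma cell genes summed to between 558.6 and 612.4, 610.5 and 698.2, 684 and 711.4, and 444.4 and 522.1 CPM, and 3 of 5 NK cell genes to at most 4.55 CPM in any sample, with Gzma at 0. In bulk samples, fewer cells of a type and less RNA per cell cannot be told apart. The FO B cell, T cell and myeloid markers were lower in the samples with CpG than in the others, as were the class I genes described next in the cells given CpG alone. The marginal zone and plasma cell markers, lists that share Mzb1, were lower with CpG + IFNα than with CpG. The part of these markers in the results was not tested.

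RefSeq promoter windows on GRCm38.p6, from 250 bases before to 50 bases after each start, were found for 7 of the 10 genes. Stretches of 6 of them are shown, those of the 3 heavy chains, B2m, Tapbp and Tap1, because these genes moved together across the groups, while Erap1, the seventh, did not move with them. Each stretch below runs 5′ to 3′ on the strand of its gene. Capitals mark GAAANNGAA and GAANNGAAA, which are 2 spellings of the core of the interferon-stimulated response element, GGGANNNCC (an NF-κB type site) and CCAAT (the NF-Y box), read on either strand. The second spelling was added after the sequences had been seen.
H2-K1, chr17:34000354-34000483, minus strand: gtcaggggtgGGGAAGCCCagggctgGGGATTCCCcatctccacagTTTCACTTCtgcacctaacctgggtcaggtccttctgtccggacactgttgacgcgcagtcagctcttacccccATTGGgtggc
H2-D1, chr17:35262898-35263027, plus strand: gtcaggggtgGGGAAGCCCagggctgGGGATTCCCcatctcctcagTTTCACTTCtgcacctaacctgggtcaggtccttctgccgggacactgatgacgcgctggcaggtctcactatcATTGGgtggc
H2-T23, chr17:36032705-36032834, minus strand: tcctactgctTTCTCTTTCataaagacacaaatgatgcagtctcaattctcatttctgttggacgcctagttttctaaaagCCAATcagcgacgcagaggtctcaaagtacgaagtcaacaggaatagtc
B2m, chr2:122147538-122147667, plus strand: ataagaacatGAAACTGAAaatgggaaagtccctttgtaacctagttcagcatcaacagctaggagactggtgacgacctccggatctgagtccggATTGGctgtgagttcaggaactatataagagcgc
Tapbp, chr17:33919303-33919432, plus strand: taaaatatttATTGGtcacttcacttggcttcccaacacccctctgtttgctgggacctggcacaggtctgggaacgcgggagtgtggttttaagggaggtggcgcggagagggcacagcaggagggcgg
Tap1, chr17:34187331-34187555, plus strand: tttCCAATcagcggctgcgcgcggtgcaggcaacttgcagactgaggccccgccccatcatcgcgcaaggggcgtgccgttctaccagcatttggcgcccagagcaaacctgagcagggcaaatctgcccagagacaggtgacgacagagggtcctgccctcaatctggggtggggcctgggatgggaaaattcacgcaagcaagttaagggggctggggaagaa
The stretches of H2-K1 and H2-D1 are alike, with 96 of their first 100 bases identical, and both carry a pair of GGGANNNCC sites just before the interferon response core. H2-T23 and B2m hold the other spelling of that core and no GGGANNNCC. The Tap1 stretch fills the gap between the RefSeq starts of Tap1 and of Psmb9, an immunoproteasome subunit read from the other strand. Of these letters, the stretches of Tap1 and Tapbp hold CCAAT only. Counted by gene, 3 of the 7 held GAAANNGAA (B2m, H2-T23 and Erap1), 2 held GAANNGAAA, 2 held GGGANNNCC and 6 held CCAAT. TTCNNNGAA, the gamma-activated sequence, was held by 0. H2-K1 has 2 windows, which hold the same motifs, and counts as 1 gene. Over all 32851 windows of the same length the shares were 8.56%, 7.52%, 18.6%, 37.4% and 8.3%, in that order. These are shares of windows and not of genes. A match describes the letters and does not show that a factor binds there. Erap1, which holds GAAANNGAA, had a log2 fold change of 0.11 with IFNα, while Tap1 and Tapbp, which hold neither spelling, had 1.38 and 0.80. A link between these letters and the response was not tested.

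IFNα and CpG moved the class I genes in opposite directions. With IFNα alone the median of the 10 log2 fold changes against unstimulated cells was 0.83, beside 0.00 over all genes tested. Of the 10, 8 passed edgeR's quasi-likelihood test (adjusted p under 0.1 after Benjamini-Hochberg correction), all higher, where 12.4% of all genes tested did so, and 3 were also over 2-fold and so counted as DEGs (H2-T23, Tap1 and Nlrc5), beside 4.56% of all genes. With CpG alone 9 of the 10 were down-regulated DEGs, beside 25.5% of all genes, and the median of the 10 was -1.38 beside -0.03 over all genes. Erap1 was the exception and was an up-regulated DEG, as were 20.1% of all genes.

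When IFNα was added to CpG, 9 of the 10 genes were higher than with CpG alone, beside 6.54% of all genes tested, and 8 of them were up-regulated DEGs, beside 2.95%. The median log2 fold change of the 10 was 1.12, and that of all genes was -0.04. Against unstimulated cells, 7 of the 10 still differed by adjusted p with CpG + IFNα. Of these, 3 were higher (Tap1, Nlrc5 and Erap1) and 4 were lower (H2-D1, which did not hold under 3 of 20 alternatives, H2-T23, Tap2 and Tapbpl), where 37.6% and 38.8% of all genes were higher and lower. H2-K1, B2m and Tapbp did not pass the test. Of the 10, only Erap1 was a DEG in that comparison, where 20.3% of all genes were up-regulated and 25.6% were down-regulated DEGs. Against IFNα alone, 9 genes were lower with CpG + IFNα, beside 39.8% of all genes, and 2 of these were down-regulated DEGs (H2-T23 and Tap2), a share close to the 25.5% of all genes. Erap1 was an up-regulated DEG there, beside 18.7% of all genes. These comparisons share samples, so that their values are not independent of each other.

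**Figure D1:**
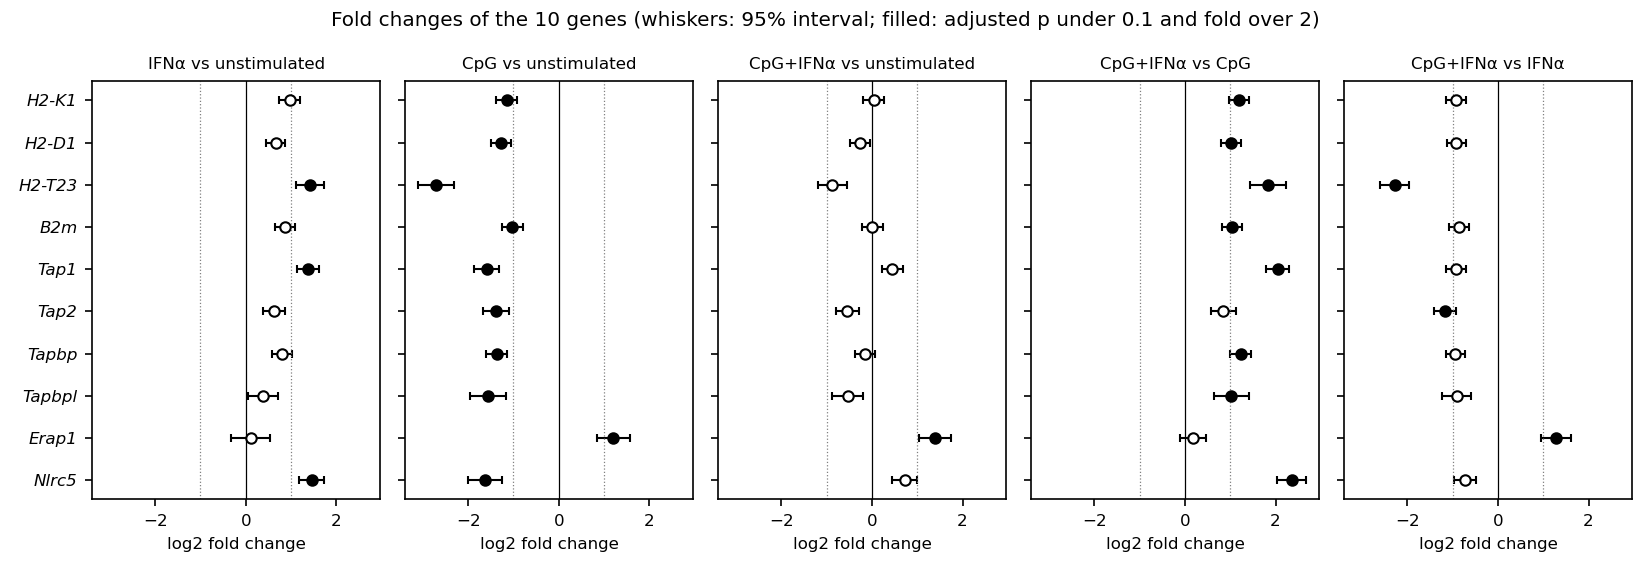
Log2 fold changes of the 10 genes (x axis) in 5 comparisons, with 95% intervals as whiskers and DEGs as filled points. With CpG alone 9 genes lie at or below -1.02, with CpG + IFNα against CpG 9 lie between 0.85 and 2.35, and Erap1 stands on the other side from the rest in both comparisons of a CpG group with its partner without CpG.

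Of the heavy chains, H2-K1 and H2-D1 encode the classical molecules that present peptides to CD8 T cells. H2-K1 was at 2096, 2329 and 2512 CPM in the unstimulated samples, at 4533, 4165 and 4849 CPM with IFNα, at 966, 1096 and 1058 CPM with CpG, and at 2293, 2410 and 2430 CPM with CpG + IFNα. The IFNα samples were the highest and the CpG samples the lowest without any overlap, and the CpG + IFNα samples lay inside the range of the unstimulated ones. The log2 fold change of H2-K1 was 0.97 (standard error 0.11, adjusted p = 2.37e-08 from edgeR) for IFNα, -1.15 (standard error 0.11, adjusted p = 8.91e-11) for CpG, and 1.19 (standard error 0.11, adjusted p = 3.93e-10) for CpG + IFNα against CpG. Against unstimulated cells, CpG + IFNα left H2-K1 at a log2 fold change of 0.04 with a 95% interval from -0.18 to 0.27. H2-K1 missed the fold limit with IFNα by little, and it was a DEG without unstimulated replicate 3, at 1.001, and without IFNα replicate 2, at 1.03.

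H2-D1 was at 1771, 1753 and 1795 CPM in unstimulated cells, at 2979, 2533 and 2876 CPM with IFNα, at 728, 759 and 705 CPM with CpG, and at 1463, 1421 and 1556 CPM with CpG + IFNα. All 4 groups were apart, and the combination stayed below the unstimulated samples. IFNα raised H2-D1 by 0.66 on the log2 scale (standard error 0.11), CpG gave -1.28 (standard error 0.11), and CpG + IFNα gave 1.02 against CpG (standard error 0.11, adjusted p = 4.84e-09 from edgeR). Against unstimulated cells, the combination was lower by a log2 fold change of -0.26 (adjusted p = 0.0272 from edgeR). This call was lost without unstimulated replicate 3 (log2 fold change -0.23, adjusted p = 0.113), without CpG + IFNα replicate 2 (-0.21, adjusted p = 0.126) and without the filter on low counts (-0.14, adjusted p = 0.41). H2-D1 lay just past the fold limit in CpG + IFNα against CpG and fell short of it without CpG replicate 3, at 0.99, and without CpG + IFNα replicate 3, at 0.98.

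H2-T23 encodes Qa-1, a nonclassical molecule that presents signal peptides of other class I chains to NK cell receptors, and of the 10 it had the lowest fold change with CpG. It was at 176, 155 and 266 CPM in unstimulated cells, at 589, 426 and 585 CPM with IFNα, at 33.8, 29.9 and 28.5 CPM with CpG, and at 89.5, 111 and 127 CPM with CpG + IFNα. No groups overlapped, and the order from high to low was IFNα, unstimulated, CpG + IFNα and CpG. CpG lowered H2-T23 6.52-fold (log2 fold change -2.70, standard error 0.19, adjusted p = 5.18e-14 from edgeR), while IFNα raised it 2.65-fold. Added to CpG, IFNα raised H2-T23 3.57-fold (log2 fold change 1.83, standard error 0.19), and the combination remained below unstimulated cells at -0.87 (standard error 0.16, adjusted p = 1.48e-05 from edgeR). It was also the gene of the 10 with the lowest fold change of CpG + IFNα against IFNα, at a log2 value of -2.28 (standard error 0.15).

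Reads of the heavy chains can be hard to tell apart. In the last 500 bases of their transcripts, 3.38% of all 81-base words of H2-K1, 9.63% of those of H2-D1 and 6.04% of those of H2-T23 also occur in transcripts of other genes, among them other heavy chains for H2-K1 and H2-D1. The same share was 0% for B2m, Tap1, Tap2, Erap1 and Nlrc5, 0.341% for Tapbp and 5% for Tapbpl. H2-T23, B2m, Tap1, Tap2, Tapbp, Tapbpl, Erap1 and Nlrc5 also overlap a gene on the other strand in the annotation (Tap1 overlaps Psmb9, and Tapbpl overlaps Vamp1; the annotation here is GENCODE M21, whose starts differ from those of RefSeq), and the strand setting of the counting is not given in the sources used here.

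B2m, the light chain that every class I heavy chain needs, was the most abundant of the 10 at the scale of CPM in all groups. B2m was at 4353, 4315 and 4689 CPM in unstimulated cells, at 8853, 7302 and 8230 CPM with IFNα, at 2168, 2157 and 2238 CPM with CpG, and at 4408, 4395 and 4671 CPM with CpG + IFNα. The combination again fell inside the unstimulated range, between the separate groups of IFNα above and CpG below. The log2 fold changes of B2m were 0.87 (standard error 0.11, adjusted p = 2.37e-07 from edgeR) for IFNα, -1.03 (standard error 0.11, adjusted p = 1.16e-09) for CpG and 1.04 (standard error 0.11, adjusted p = 9.68e-09) for CpG + IFNα against CpG. The 95% interval of CpG + IFNα against unstimulated cells was -0.21 to 0.24. The DEG call of B2m with CpG sat at the fold limit: it was lost without IFNα replicate 1 or 3, at -0.995 and -0.996, and without CpG replicate 1 or 2, at -0.997 and -0.981, as well as without the filter on low counts, at -0.97.

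**Figure D2:**
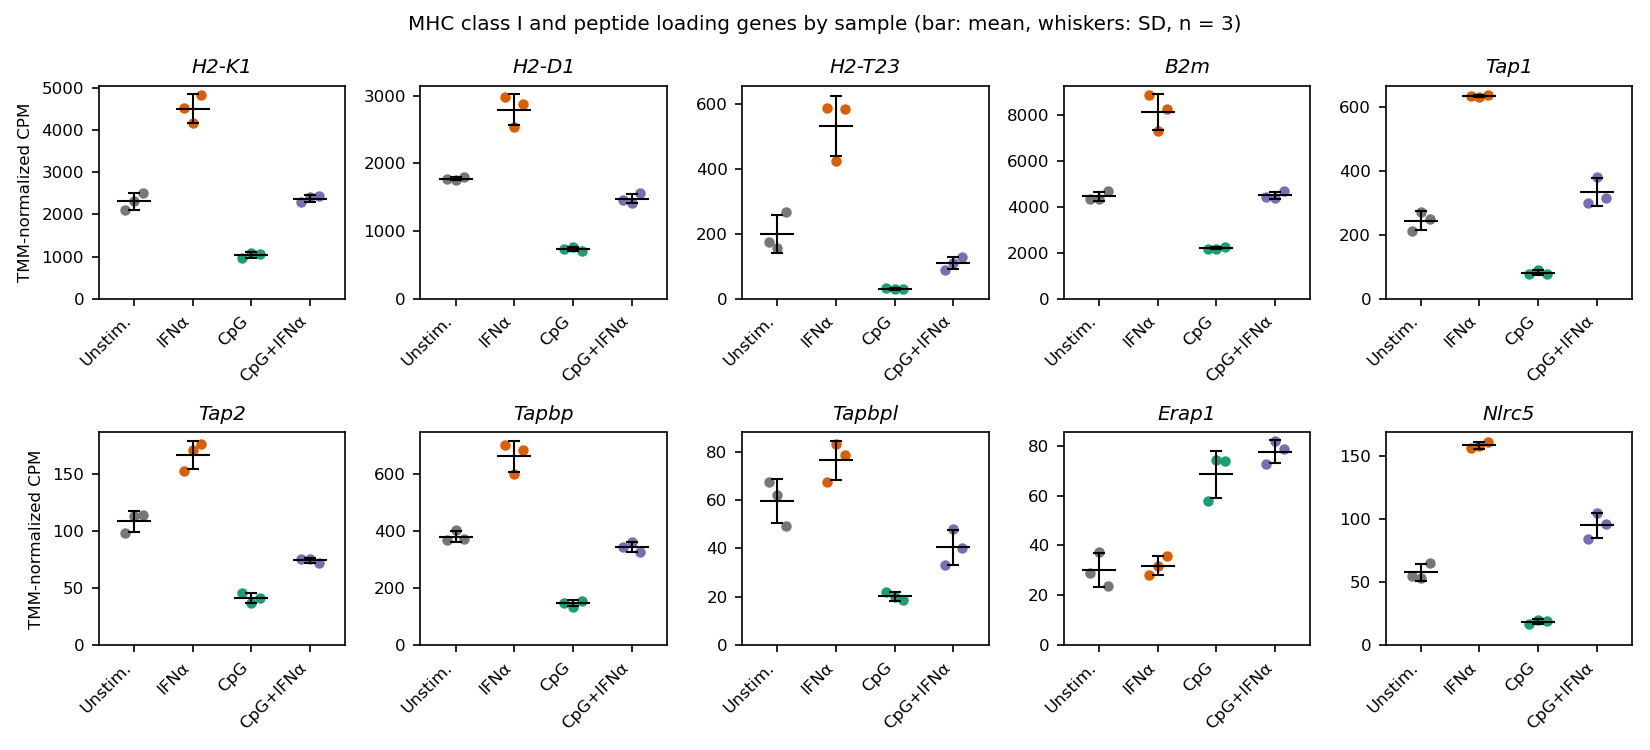
TMM-normalized CPM (y axis, a separate linear scale from 0 for each gene) of the 10 genes in each of the 12 samples, with the mean and SD of each group (n = 3). The CpG samples are the lowest in the 9 genes that were down-regulated DEGs with CpG (25.5% of all genes were such DEGs). H2-K1 and B2m with CpG + IFNα lie among the unstimulated samples, and Erap1 is higher in both groups that received CpG.

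Tap1 and Tap2 encode the paired subunits of the transporter that carries peptides into the ER, and their genes lie close together on chromosome 17, from 34187553 to 34197225 for Tap1 and from 34203527 to 34216321 for Tap2 (GRCm38). Tap1 was at 211, 271 and 251 CPM in unstimulated cells, at 635, 631 and 639 CPM with IFNα, at 78.0, 89.8 and 75.9 CPM with CpG, and at 299, 383 and 317 CPM with CpG + IFNα. Every group was apart from the others, and here the combination stood above the unstimulated samples. The log2 fold change of Tap1 was 1.38 (standard error 0.12) with IFNα, -1.59 (standard error 0.13) with CpG and 2.05 (standard error 0.13, adjusted p = 1.00e-14 from edgeR) with CpG + IFNα against CpG, a 4.13-fold rise. Against unstimulated cells the combination was 0.46 higher on the log2 scale (adjusted p = 0.000987 from edgeR).

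Tap2 moved less. It was at 98.3, 113 and 114 CPM in unstimulated cells, at 152, 171 and 176 CPM with IFNα, at 45.4, 37.1 and 40.9 CPM with CpG, and at 75.8, 75.6 and 71.9 CPM with CpG + IFNα. The 4 groups did not overlap, and the combination lay below the unstimulated samples, the opposite of Tap1. Its log2 fold change was 0.63 (standard error 0.12) with IFNα, -1.39 (standard error 0.14) with CpG, 0.85 (standard error 0.14, adjusted p = 1.77e-05 from edgeR) with CpG + IFNα against CpG, and -0.54 (standard error 0.13, adjusted p = 0.000328) with CpG + IFNα against unstimulated cells.

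Tapbp encodes tapasin, which bridges TAP and the empty heavy chain, and Tapbpl encodes the related editor TAPBPR. Tapbp was at 367, 401 and 371 CPM in unstimulated cells, at 700, 600 and 683 CPM with IFNα, at 149, 134 and 154 CPM with CpG, and at 344, 361 and 324 CPM with CpG + IFNα. The order of the groups was that of H2-D1. IFNα raised Tapbp by 0.80 on the log2 scale (standard error 0.11, adjusted p = 5.32e-07 from edgeR), CpG gave -1.37 (standard error 0.11, adjusted p = 2.19e-12), and CpG + IFNα gave 1.23 against CpG (standard error 0.11, adjusted p = 1.64e-10). Against unstimulated cells the combination had a log2 fold change of -0.14 (95% interval -0.36 to 0.08) and did not pass the test, although with all counts thinned to the lowest depth it was -0.30 and passed (adjusted p = 0.0195).

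Tapbpl was at 67.3, 62.0 and 49.4 CPM in unstimulated cells, at 67.6, 83.3 and 78.6 CPM with IFNα, at 22.1, 19.96 and 18.5 CPM with CpG, and at 33.3, 48.0 and 40.1 CPM with CpG + IFNα. The unstimulated and IFNα samples nearly met, and the CpG samples were the lowest. Its log2 fold change with IFNα was 0.38 (standard error 0.17) and did not pass the test (adjusted p = 0.114 from edgeR). It passed under 3 of 20 alternatives, which were without unstimulated replicate 1 (0.48, adjusted p = 0.0826), without IFNα replicate 1 (0.45, adjusted p = 0.0816) and without CpG + IFNα replicate 2 (0.38, adjusted p = 0.0962). CpG lowered Tapbpl 2.95-fold (log2 fold change -1.56, standard error 0.20), and CpG + IFNα raised it 2.04-fold against CpG (log2 fold change 1.03, standard error 0.19, adjusted p = 0.00013 from edgeR). The last call was lost without CpG replicate 3, at 0.96, and without CpG + IFNα replicate 2, at 0.87, and with all counts thinned to the lowest depth it was 0.71 and did not pass the test (adjusted p = 0.111). Without CpG + IFNα replicate 2, Tap1 and Tapbpl were also down-regulated DEGs of CpG + IFNα against IFNα, at -1.02 and -1.05, where the full data gave -0.93 and -0.91.

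Erap1, the ER aminopeptidase that trims peptides to the length class I molecules bind, followed CpG and not IFNα. Erap1 was at 29.1, 37.4 and 23.8 CPM in unstimulated cells, at 28.3, 31.6 and 35.9 CPM with IFNα, at 57.7, 74.1 and 73.9 CPM with CpG, and at 72.5, 81.8 and 78.6 CPM with CpG + IFNα. The groups with CpG lay above both groups without it, and within each of these pairs the samples overlapped. CpG raised Erap1 2.30-fold (log2 fold change 1.20, standard error 0.18, adjusted p = 5.65e-07 from edgeR), and CpG + IFNα raised it 2.61-fold against unstimulated cells and 2.42-fold against IFNα. For IFNα the log2 fold change was 0.11 (95% interval -0.32 to 0.53) without CpG and 0.18 (95% interval -0.10 to 0.47) with it, and neither passed the test. The deposited counts behind Erap1 ran from 27 to 237 per sample, and with all counts thinned to the lowest depth its change with CpG was 0.99 on the log2 scale, just short of the fold limit.

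Nlrc5 encodes the transactivator that is recruited to class I promoters, and of the 10 it had the highest fold change with IFNα, close to those of H2-T23 and Tap1. Nlrc5 was at 54.6, 53.5 and 65.3 CPM in unstimulated cells, at 156, 158 and 162 CPM with IFNα, at 16.6, 19.96 and 19.5 CPM with CpG, and at 84.5, 105 and 96.1 CPM with CpG + IFNα. No groups overlapped, and the combination stood above the unstimulated samples, as for Tap1. IFNα raised Nlrc5 2.74-fold (log2 fold change 1.45, standard error 0.14, adjusted p = 3.27e-10 from edgeR), and CpG lowered it 3.10-fold (log2 fold change -1.63, standard error 0.18, adjusted p = 1.48e-09). Added to CpG, IFNα raised Nlrc5 5.11-fold (log2 fold change 2.35, standard error 0.16, adjusted p = 5.62e-14 from edgeR), and the combination was 1.65-fold higher than in unstimulated cells (adjusted p = 2.77e-05). With CpG alone, Nlrc5 rested on 27 to 39 counts per sample.

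The effect of IFNα with CpG was compared with its effect without CpG by the interaction, which is the log2 fold change of CpG + IFNα against CpG minus that of IFNα against unstimulated cells. In the full data the interaction was above 0 in all 10 genes (that of Erap1, at 0.07, was -0.10 without unstimulated replicate 2, -0.0005 without IFNα replicate 1 and -0.04 without CpG replicate 1), with a median of 0.39 beside -0.05 over all genes tested. Of the 10, 3 passed edgeR's test, beside 5.84% of all genes: Nlrc5 at 0.90 (standard error 0.22, adjusted p = 0.00592), Tap1 at 0.66 (standard error 0.17, adjusted p = 0.0115) and Tapbp at 0.43 (standard error 0.15, adjusted p = 0.0752). Of the 10, 0 exceeded the 2-fold limit by edgeR or DESeq2, which 3.09% of all genes did upward by edgeR, and 5 had an unadjusted p under 0.05. The other 7 did not pass, with adjusted p between 0.104 for Tapbpl and 0.913 for Erap1. Nlrc5 and Tap1 passed under all 19 alternatives, with an adjusted p of up to 0.0287 and 0.0551, whereas Tapbp passed under 10 of 19 (adjusted p from 0.0247 to 0.211) and lost the test without unstimulated replicate 1 or 2, IFNα replicate 2 or 3, CpG replicate 1 or 2, or CpG + IFNα replicate 1 or 2, and with counts thinned, with values from 0.36 to 0.52 when single samples were left out. Tapbpl passed under 7 of 19 alternatives, among them the fit with the replicate number as a block (0.64, adjusted p = 0.0906), and H2-D1 passed under 4. The interaction sets cultured cells against cells whose culture is not stated, so that a difference in the response to IFNα and an effect of culture cannot be told apart. Among all genes with an interaction past both limits, 49.3% were above 0, and 59.4% when mitochondrial and rRNA genes were left out.

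**Figure D3:**
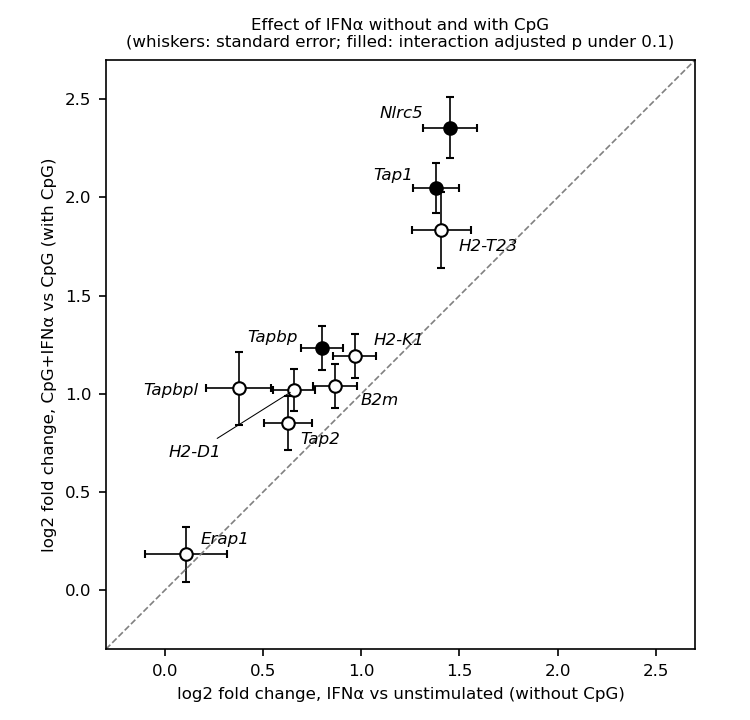
Log2 fold change of each gene with IFNα against unstimulated cells (x axis) and with CpG + IFNα against CpG (y axis), with standard errors as whiskers and a dashed line of equal effect. All 10 points lie above the line; the filled points, Nlrc5, Tap1 and Tapbp, had an interaction with an adjusted p under 0.1.

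Ratios of raw UMIs within a sample do not depend on normalization, and they showed that the genes changed unequally. Tap1 had between 1.72 and 2.42 UMIs per Tap2 UMI in the 6 samples without IFNα and between 3.62 and 5.07 in the 6 samples with it. The separation was complete, and the mean difference was 0.97 on the log2 scale (adjusted p = 0.01, two-sided exact permutation test within the strata with and without CpG, adjusted over 6 tests of ratios). The unadjusted p of 0.005 is the smallest these 400 arrangements can give, and all tests of ratios were added after the values had been seen. For CpG the mean difference of the same ratio was 0.02 (adjusted p = 0.865, same exact test), which averages opposite directions: without IFNα the ratio was 2.246 ± 0.1253 in unstimulated cells and 1.998 ± 0.3748 with CpG, and with IFNα it was 3.823 ± 0.2982 without CpG and 4.475 ± 0.5621 with it (SD, n = 3). The samples overlapped in both pairs, and the pairs were not tested apart.

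H2-K1 had between 1.18 and 1.5 UMIs per H2-D1 UMI without IFNα and between 1.52 and 1.70 with it. The higher ratio with IFNα was a difference of 0.25 on the log2 scale (adjusted p = 0.01, exact permutation test), and that for CpG was 0.06 (adjusted p = 0.384). H2-T23 had between 6.66 and 13.0 UMIs per 100 UMIs of H2-K1 without CpG and between 2.69 and 5.24 with it. CpG changed the ratio of H2-T23 to H2-K1 by -1.44 on the log2 scale (adjusted p = 0.01, exact permutation test), and IFNα by 0.55 (adjusted p = 0.015). The 3 heavy chains together had 0.962 ± 0.029 UMIs per B2m UMI in unstimulated cells, 0.967 ± 0.048 with IFNα, 0.824 ± 0.043 after CpG and 0.883 ± 0.012 after CpG + IFNα (SD, n = 3). This ratio was between 0.797 and 0.897 in the samples with CpG and between 0.915 and 1.01 in those without it, so that the samples did not overlap. The 10 genes together held 0.975% ± 0.060 of all UMIs in unstimulated cells, 1.69% ± 0.11 with IFNα, 0.437% ± 0.013 after CpG and 0.939% ± 0.052 after CpG + IFNα (SD, n = 3).

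**Figure D4:**
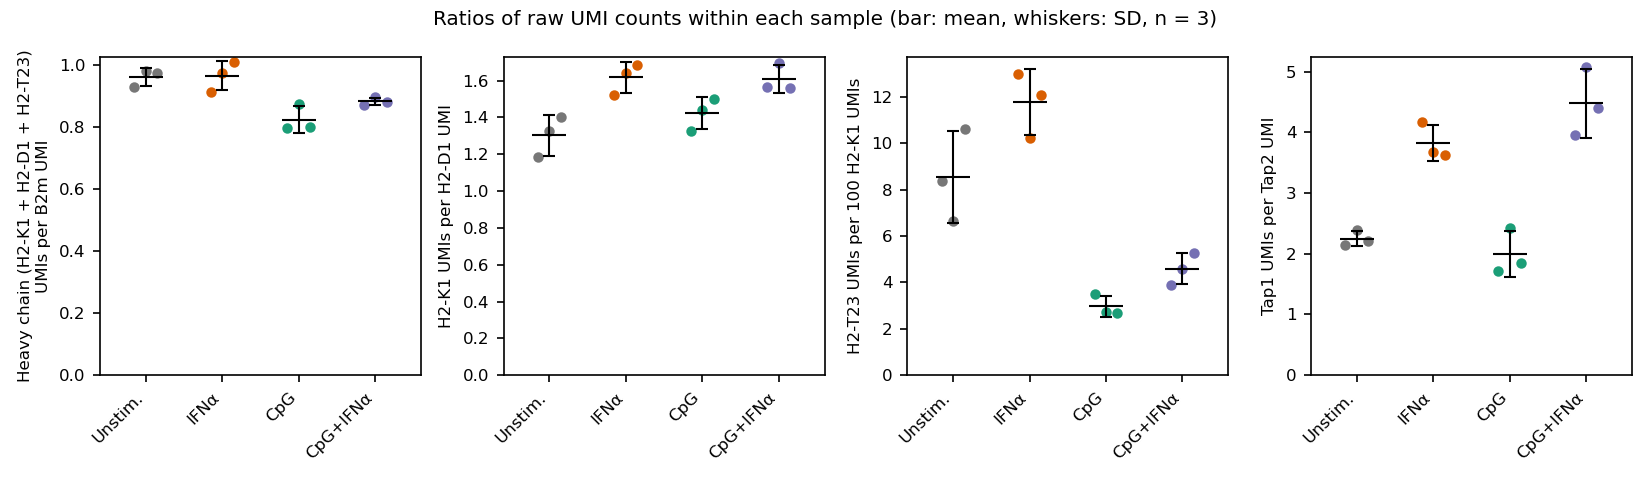
Ratios of raw UMI counts (y axes from 0) in each sample, with the mean and SD of each group (n = 3): the 3 heavy chains per B2m, H2-K1 per H2-D1, H2-T23 per 100 H2-K1, and Tap1 per Tap2. Tap1 per Tap2 is higher in all samples that received IFNα than in the others, and H2-T23 per H2-K1 is lower in all samples that received CpG.

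The other genes of the pathway were described by lists. Of 33 other class I heavy chains and class I-like molecules, 10 were tested. H2-K2, Fcgrt (the neonatal Fc receptor chain) and Cd1d1, which presents lipids, reached the level of the filter on low counts in no sample with CpG, and so were tested only because the groups without CpG were high, which fixed their direction against those groups. The other 7 were all down-regulated DEGs with CpG, beside 25.5% of all genes, at a median log2 fold change of -1.81 beside -0.03. With CpG + IFNα against CpG, 6 of the 7 were up-regulated DEGs, beside 2.95% of all genes, at a median of 1.68 beside -0.04. With IFNα alone 4 of the 10 were up-regulated DEGs and 2 (Cd1d1 and Fcgrt) were down-regulated ones, beside 4.56% and 4.07% of all genes. With CpG + IFNα against unstimulated cells, 0 of the 7 were up-regulated and 1 was a down-regulated DEG, beside 20.3% and 25.6% of all genes. H2-T22, a nonclassical chain, was at 75.8 ± 9.32 CPM in unstimulated cells, 363 ± 25 CPM with IFNα, 22.5 ± 3.67 CPM after CpG and 104 ± 12.3 CPM after CpG + IFNα (SD, n = 3). The Qa-2 genes H2-Q7 and H2-Q6 were at log2 fold changes of -1.81 and -1.66 after CpG and at 1.74 and 1.68 in CpG + IFNα against CpG. Shared 81-base words made up 17% of the transcript ends of H2-T22 and 29.8% of those of H2-Q6, so that their counts are uncertain. H2-K2, Fcgrt and Cd1d1 were named after their values were seen. All 3 had at most 3 counts in every sample with CpG alone. Fcgrt and Cd1d1 also had at most 3 counts per sample with CpG + IFNα and could not be compared between these groups, whereas the level of H2-K2 with CpG + IFNα was at least 1.15 higher on the log2 scale than that bound.

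The immunoproteasome replaces the standard catalytic subunits to favor class I peptides, and PA28 opens the proteasome. Of these 7 genes, 4 were up-regulated DEGs with IFNα, beside 4.56% of all genes. With CpG + IFNα against CpG 6 of the 7 passed the test as higher, beside 6.54% of all genes, and of these Psmb9 was also over 2-fold, beside 2.95%. The other 5 were Psme1 at 0.70, Psme2b at 0.61, Psme2 at 0.52, Psmb10 at 0.51 and Psmb8 at 0.50 on the log2 scale, while Psme3 was at -0.06 and did not pass (all named after their values were seen). Psmb9, the neighbor of Tap1 on the other strand, was at 137 ± 17.8 CPM in unstimulated cells, 349 ± 33.6 CPM with IFNα, 40.6 ± 5.95 CPM after CpG and 171 ± 15 CPM after CpG + IFNα (SD, n = 3). These levels rank the groups as Tap1 does. With CpG alone Psmb9 was the only down-regulated DEG of the list (log2 fold change -1.75), beside 25.5% of all genes, and the PA28 genes Psme2 and Psme3 were up-regulated DEGs at 1.75 and 2.06, beside 20.1% of all genes.

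ER chaperones fold and hold the heavy chains, and peptidases trim or destroy peptides. With IFNα alone, 4 of 10 ER chaperones and translocon genes passed the test, beside 24.3% of all genes in either direction, and 0 were DEGs, beside 8.63%. Of the 4, Calr (-0.58 on the log2 scale, adjusted p = 0.00393 from edgeR), Uggt1 (-0.80) and Sec61a1 (-0.78) were lower and Bcap31 (0.37) was higher, the last 3 named after their values were seen. With CpG alone, 8 of the 10 passed, beside 74.9% of all genes, and 1 was a DEG (Sec61g, higher at 1.08, also named after its value was seen), beside 45.6% in either direction. With CpG + IFNα against CpG, 0 of 10 ER chaperones and translocon genes and 0 of 9 peptidases were DEGs by edgeR or by DESeq2, with medians of -0.17 and 0.00. As 2.95% of all genes were up-regulated DEGs, lists of this size would hold few or none at that share. At an unadjusted p under 0.05 there were 2 and 0 genes (edgeR's quasi-likelihood test). Sec61g alone of these lists passed on adjusted p by edgeR (-0.43 on the log2 scale, adjusted p = 0.05745), beside 15.4% of all genes. By DESeq2, 0 genes of these lists passed. Calr, which holds heavy chains for loading, was at 538 ± 58.7 CPM in unstimulated cells, 363 ± 94.9 CPM with IFNα, 489 ± 55.0 CPM after CpG and 440 ± 80.5 CPM after CpG + IFNα (SD, n = 3). Its partner in the loading complex, Pdia3, had log2 fold changes of 0.17 after IFNα, 0.56 after CpG and -0.09 in CpG + IFNα against CpG. Canx, which binds newly made heavy chains, had 0.94 with CpG (adjusted p = 5.02e-09 from edgeR) and 0.12 with CpG + IFNα against CpG. With CpG, 3 of the 9 peptidases were up-regulated DEGs, beside 20.1% of all genes, and 0 were down-regulated, beside 25.5%. These were Lap3, Thop1 and Blmh at log2 fold changes of 3.56, 2.47 and 1.14, named after their values were seen.

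Of 19 transcription factors of class I genes, Irf1 was below the level of the filter in every sample with CpG alone, so that its direction there was fixed by the filter. Of the other 18, 7 were down-regulated DEGs with CpG, beside 25.5% of all genes, and 4 were up-regulated DEGs with CpG + IFNα against CpG, beside 2.95%, with Irf7 and Irf9 among the latter. Irf1, an activator of class I promoters, was at 104 ± 27.7 CPM in unstimulated cells, 177 ± 7.01 CPM with IFNα, 3.35 ± 2.47 CPM after CpG and 23.2 ± 2.84 CPM after CpG + IFNα (SD, n = 3). CpG left Irf1 at 2 to 10 counts per sample, and with CpG + IFNα it stayed below unstimulated cells, at -2.14 on the log2 scale (standard error 0.18, adjusted p = 3.37e-12 from edgeR). Irf9, a subunit of the factor that type I interferons activate, and Irf7, which amplifies interferon responses, rose by 1.78 and 4.83 on the log2 scale when IFNα was given alone and by 2.21 and 4.70 when it was added to CpG, and CpG alone changed them by -1.34 and -2.35.

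**Figure D5:**
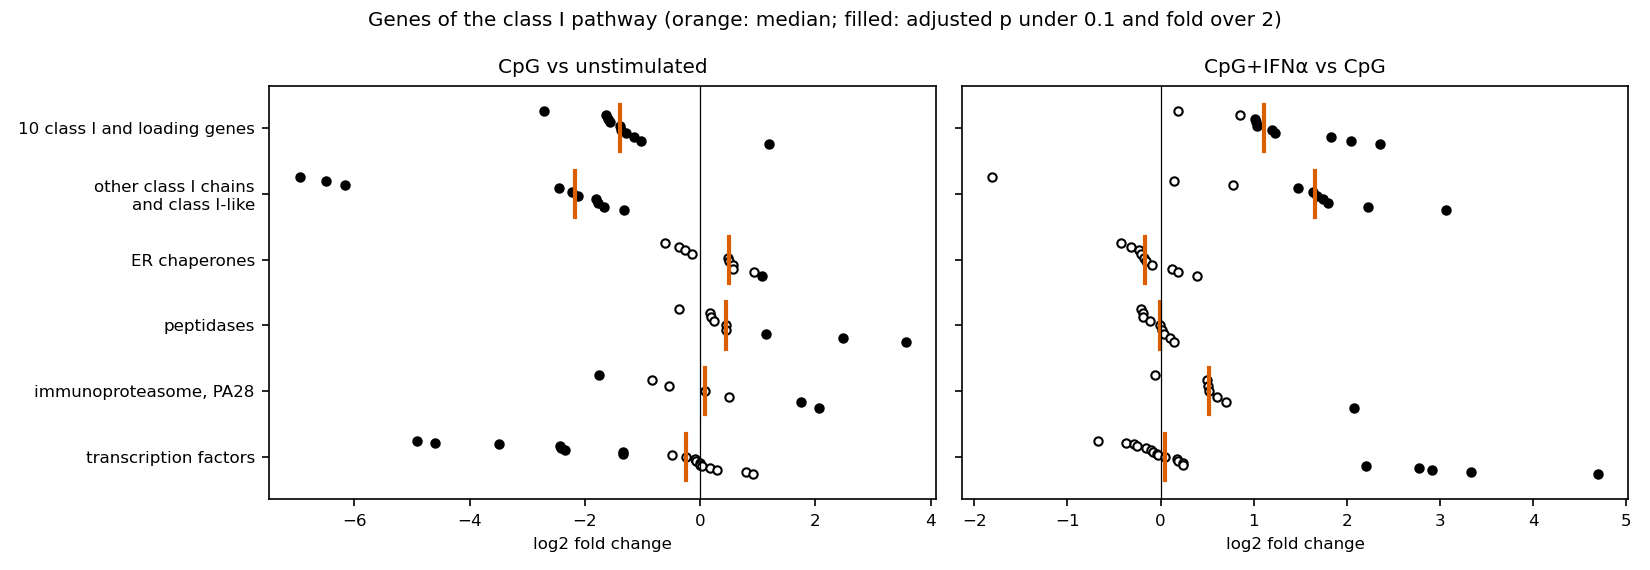
Log2 fold changes (x axis) of the 10 genes and of 5 lists of other pathway genes with CpG against unstimulated cells and with CpG + IFNα against CpG; each point is a gene, filled points are DEGs and orange bars are medians. Heavy chains lie left of 0 with CpG and mostly right of 0 when IFNα is added, while chaperones and peptidases stay near 0 in the second panel; the 3 heavy chain or class I-like genes below -6 with CpG had at most 3 counts per sample there, so that their fitted values depend on the prior count.

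Across the 12 samples, 9 of the 10 genes followed each other closely. The Pearson correlation of log2(CPM + 1) between any pair of these 9 was between 0.85 and 0.99 (n = 12), with H2-K1 and B2m the most alike, and that of Erap1 with the others was between -0.76 and -0.39. These values describe 4 groups that share depth and treatment and carry no test. Among the genes outside the list most like H2-K1 were Gbp9, Jaml and Ifi209, at correlations of 0.99, and those most like Nlrc5 were Trim12c, Rnf213, Irf9, Parp9 and Ccrl2, also at 0.99.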

How the data were processed

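For 12 BRB-seq samples of FO B cells, the authors deposited counts of unique UMIs that were not normalized. Per the study's methods and the submitters' processing notes, barcodes were extracted with UMI-tools 1.1.2, reads were trimmed with Trim Galore 0.6.7, mapped to GRCm38 with HISAT2 2.2.1 and assigned with featureCounts 2.0.1, and Tlr9 was extended; the authors then called DEGs with DESeq2 in iDEP. How reads that map to several genes were counted is not given in the sources used here.

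From these counts, edgeR 4.0.16 in R 4.3.3 filtered genes with filterByExpr, computed TMM factors and fitted all 12 samples and 9431 genes by its quasi-likelihood test, with 8 residual degrees of freedom. A gene counted as a DEG at an adjusted p (Benjamini-Hochberg) below 0.1 with more than a 2-fold difference, the limits of the study's legends. Standard errors and 95% intervals come from that fit. Depth was 922450 to 2923865 UMIs per sample. No replicate pair was alike within sampling noise, with chi-square values of 1.90 to 6.31 for each degree of freedom. All 22561 identifiers matched GENCODE M21, which gave positions on GRCm38. Promoters came from RefSeq.

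The members and gene lists were chosen with earlier results of these data known. Named genes are the 10 members, up to 3 DEGs per list and direction with the smallest p in CpG + IFNα against CpG, Irf1, Calr, Canx and Pdia3, the 5 genes most correlated with H2-K1 and with Nlrc5, and others where the text says so; some results under this rule are not reported here. Tests of ratios were added after the values were seen. The procedure was tested on simulated data. Alternatives were RLE or library size factors, no filter on low counts, DESeq2 1.42.0, fits of the groups compared only, thinning of all counts to the lowest depth, a replicate block, removal of mitochondrial and rRNA genes, other fold limits and each sample left out. Flow cytometry and qPCR were not analysed here.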

Additional observations from a re-analysis of the deposited data

Results flagged for a closer look

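For 3 of the 10 genes the effect of IFNα with CpG differed from its effect without CpG by the interaction term of edgeR's quasi-likelihood test (adjusted p under 0.1), beside 5.84% of all genes tested, and 0 of the 10 passed the 2-fold limit. The difference between the log2 fold changes was 0.9015 for Nlrc5 (2.35 with CpG and 1.45 without, adjusted p = 0.00592). For Tap1 it was 0.6648 (2.05 and 1.38, adjusted p = 0.0115). For Tapbp it was 0.4328 (1.23 and 0.80, adjusted p = 0.0752), a call that failed under 9 of 19 alternatives (adjusted p up to 0.211), 8 of them with a single sample left out. In each gene all 3 samples with CpG + IFNα were above all 3 with CpG, and all 3 with IFNα were above all 3 unstimulated samples. The interaction and an effect of culture on the unstimulated samples cannot be told apart.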

How the results depend on the processing

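Of 1190 values of single genes under the alternatives, 1160 kept their direction and their DEG call, 11 lost a DEG call, 7 gained one and 12 changed sign. Of the 1190, 28 crossed the limit on the adjusted p: 20 in the interaction (9 for Tapbp, 7 for Tapbpl and 4 for H2-D1) and 8 elsewhere (3 for Tapbpl with IFNα, 3 for H2-D1 and 1 for Tapbp with CpG + IFNα against unstimulated cells, and 1 for Tapbpl with CpG + IFNα against CpG). The changes of sign were all in values near 0 that passed no test: for B2m with CpG + IFNα against unstimulated cells, -0.0021 with RLE factors, -0.0184 with library size only, -0.0022 with DESeq2, -0.0486 with counts thinned to the lowest depth and -0.0054 with only the groups compared; for H2-K1 in the same comparison, -0.0056 with counts thinned and from -0.008 to 0.1244 with each sample left out; for Erap1 with IFNα, -0.011 with counts thinned and from -0.0715 to 0.2854 with each sample left out; and for the interaction of Erap1, from -0.1039 to 0.2952 with each sample left out. The fold limit moved the counts of genes most. With no limit on the fold, 8 genes passed with IFNα, 7 with CpG + IFNα against unstimulated cells, 10 against IFNα and 3 in the interaction, beside 24.3%, 76.4%, 75.9% and 13.4% of all genes in either direction. With a log2 fold change over 2 either way, 0 were left with IFNα, 1 with CpG, 0 with CpG + IFNα against unstimulated cells, 2 against CpG and 1 against IFNα, beside 2.66%, 17.8%, 19.4%, 1.75% and 18.0% of all genes. For CpG + IFNα against IFNα, 5 genes were DEGs with counts thinned and from 3 to 5 with each sample left out. The full data gave 3 there, beside 44.3% of all genes in either direction. With each sample left out, DEGs were from 3 to 4 for IFNα, from 9 to 10 for CpG and from 6 to 8 for CpG + IFNα against CpG. In the full data 8.63%, 45.6% and 4.96% of all genes were DEGs in either direction there, in that order. Without the filter on low counts B2m with CpG was -0.97, and with counts thinned Erap1 with CpG was 0.99, Tap2 with CpG + IFNα against CpG was 1.01, and Tapbp and Tapbpl against IFNα were -1.06 and -1.03; the cause of these shifts was not tested. Whether equal replicate numbers mark a shared mouse is not stated, and they did not meet the rule that every pair correlate over 0.1: of 18 pairs of same-numbered samples, 5 had a correlation of deviations over 0.1 (range -0.07 to 0.20), and 10 of 12 samples correlated best with their own number, a hint from the data and not from the design. With the replicate number as a block, the same genes passed in each comparison as without it, except that Tapbpl also passed in the interaction, which gave 4 genes in place of 3. Depth limits the low genes most: H2-T23, Tap2, Tapbpl and Nlrc5 with CpG, Tapbpl, Nlrc5 and Erap1 in unstimulated cells and Erap1 with IFNα rest on under 100 counts per sample.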
